A study of Mus musculus with 156 samples.

Results

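Mianserin is a tetracyclic antidepressant. The striatal transcripts of mice killed 4 h after a single injection of the drug were compared with those of mice given a vehicle. The comparison rested on 9 arrays of the 156 in the series, 3 of mianserin (20 mg/kg, intraperitoneal) and 6 of vehicle at 4 h, of which 3 were saline, in which mianserin had been dissolved, and 3 were Tween 80. All mice were male C57BL/6J and, by the sample labels, 6 to 10 weeks old. The tissue was the rostral caudate putamen with the nucleus accumbens, and each array (Illumina MouseWG-6) was hybridised with pooled RNA of 2 mice, so the spread between arrays is one between pools. No probe had been selected for the comparison, and all 45279 probes with a complete row were tested.

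Mianserin blocks serotonin 5-HT2 receptors, alpha-2 adrenergic receptors and the histamine H1 receptor. Drugs of this kind reach striatal cells directly and also through the body, since stress and many psychotropic drugs release corticosterone, which enters the brain and acts through the glucocorticoid receptor, a transcription factor. Medium spiny neurons, the main cells of the striatum, express immediate early genes such as *Fos*, *Arc* and *Npas4* when dopamine, serotonin or glutamate input drives them. Thioredoxin interacting protein (*Txnip*), the mTOR inhibitor *Ddit4* and the polymerase III subunit gene *Polr3e* are best known from metabolic control and from the transcription of transfer RNAs.

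At 4 h the signal of 312 probes differed between mianserin and vehicle, which is 0.689% of the probes tested. Of these, 220 rose and 92 fell, and 260 carried 1 gene symbol, which together name 167 genes with a probe that rose and 68 with a probe that fell. The rises reached further than the falls, since 25 probes rose by over 1 on the log2 scale and 5 fell by as much. The median rise was 0.61 and the median fall was -0.58. In 307 of the 312 called probes the 3 mianserin arrays lay outside the range of the 6 vehicle arrays, against 5.13% of all probes. The calls compare the means of these same arrays, so this count is in large part set by the calls. The genes with the highest rises were the kinase gene *Sgk1*, the cell cycle inhibitor *Cdkn1a*, *Polr3e*, *Txnip* and *Ddit4*, and those with the deepest falls were the splicing kinase *Clk1*, the *Ddit4* relative *Ddit4l*, a second splicing kinase, *Clk4*, the Notch target *Hes5* and the ciliary gene *Iqcb1*.

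The test was a linear model over all 156 arrays (limma), with Benjamini-Hochberg adjusted p-values over the 45279 probes and a threshold of 0.05. The count fell to 160 without replicate 1 of mianserin and to 161 without replicate 2. Replicate 2 of mianserin stood apart, with 399 probes more than 1 log2 unit from the vehicle mean whereas replicates 1 and 3 had 77 and 38 such probes and the vehicle arrays had from 1 to 17. Its part in single results was measured only by leaving it out. The median log2 signal before normalization was 7.76 in that array, 8.07 and 8.55 in the other two mianserin arrays and 8.01 to 8.23 in the vehicle arrays. No chip that held a 4 h mianserin array held a 4 h vehicle array, so no value within a chip could be had, and with the chip as a fixed block 204 probes were called, 119 higher and 85 lower. Chips fell into 2 ranges of chip numbers. In the earlier range (2 mianserin and 3 vehicle arrays) 1834 probes were called, 597 higher and 1237 lower, and in the later range (1 mianserin and 3 vehicle arrays) 52, 30 higher and 22 lower. In the later range the spread came from the other groups, and the lone mianserin array was assumed to vary like them.

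**Figure D1:**
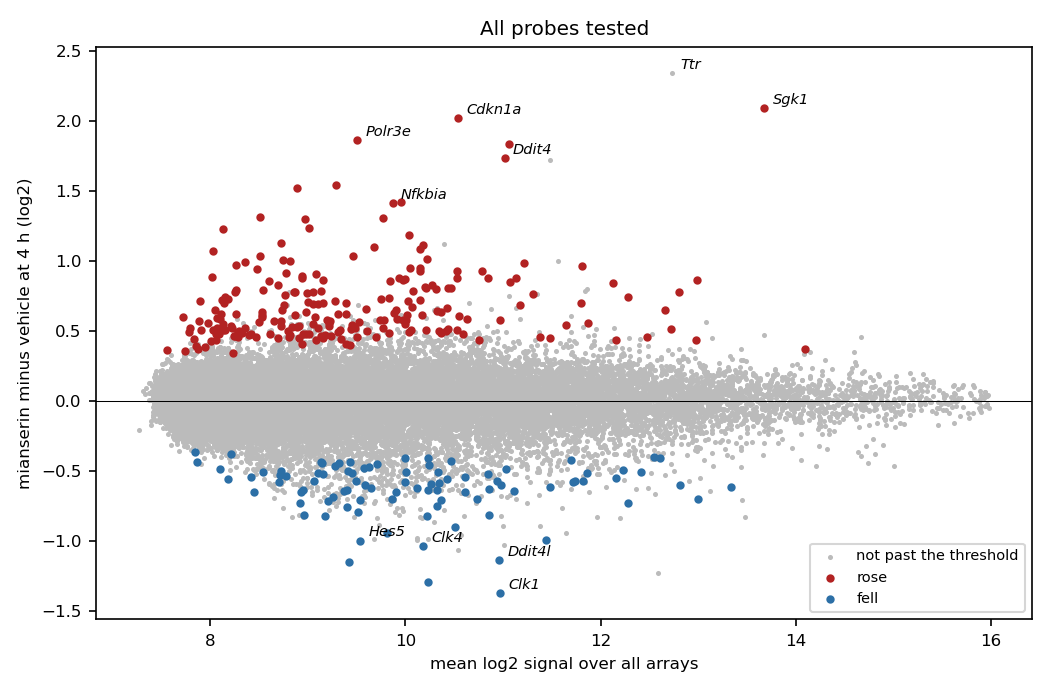
Change 4 h after mianserin against vehicle on the log2 scale (vertical axis) by the mean log2 signal over all arrays (horizontal axis), 1 point for each of the 45279 probes tested. The 220 probes that rose are red, the 92 that fell are blue, and the probe of *Ttr* lies high without having passed the threshold.

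*Polr3e* encodes a subunit of RNA polymerase III, the enzyme that transcribes transfer RNAs and 5S ribosomal RNA. Its log2 signal was 10.98, 11.18 and 11.08 on the mianserin arrays, 9.25, 9.26 and 9.29 on the saline arrays and 9.19, 9.19 and 9.13 on the Tween 80 arrays. Every mianserin array was above every vehicle array, and both groups were tight. The rise was 1.86 (SE 0.17), which is 3.64-fold, with an adjusted p of 3.79e-15 from limma. It was called in each of 26 alternative analyses, with changes from 1.81 to 2.09. A second, dimmer probe of the gene rose by 0.50 (SE 0.14, adjusted p = 0.0453) with a wide spread in the treated mice, at 8.57, 8.20 and 9.34 against 7.89 to 8.41 in vehicle arrays. Among the 22 genes of RNA polymerase III and its factors that were measured, *Polr3e* was the 1 that rose by its brightest probe and none fell, with a median change of -0.01 and the lowest value at -0.34. Of all 19057 genes, each by its brightest probe, 0.640% rose and 0.262% fell, and the counts of genes in the lists that follow stand beside these shares.

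*Txnip* binds and inhibits thioredoxin and restrains the uptake of glucose. Its signal was 12.15, 12.55 and 11.76 after mianserin against 10.15 to 10.42 in the 6 vehicle arrays (median 10.36). The rise was 1.84 (SE 0.22, adjusted p = 2.86e-10), and a second probe of the gene rose by 1.42 (SE 0.20). Of the 3 naive arrays, from mice that had not been injected, 1 read 11.03, which is above every vehicle array and below every mianserin array. *Txnip* belongs to the alpha-arrestins, adaptor proteins that send membrane proteins into the cell. Of 12 measured genes of these and the thioredoxin system 3 rose and none fell, and the other two were *Arrdc2* (1.30, SE 0.17) and *Arrdc4* (0.82, SE 0.13). The mianserin arrays of *Arrdc2* lay at 10.31, 10.45 and 10.29 against 8.79 to 9.20 in vehicle. The second probe of *Arrdc2*, at 0.35, was not called.

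*Ddit4* (also known as Redd1), which is induced by glucocorticoids and by hypoxia, inhibits mTOR complex 1. Its signal was 12.05, 12.25 and 11.95 after mianserin against 10.10 to 10.62 in vehicle arrays (median 10.36), a rise of 1.74 (SE 0.19, adjusted p = 2.54e-11). *Ddit4l* (Redd2), a related inhibitor of mTOR, moved the other way. It read 10.03, 10.01 and 9.66 after mianserin and 10.83 to 11.13 in vehicle arrays, so it fell by 1.14 (SE 0.14, adjusted p = 4.94e-09). These were the only genes of 30 in the list of mTOR complexes and regulators that passed the test by their brightest probe, and the median of the list was 0.0027. A dim probe of *Mtor* itself rose by 0.73 (SE 0.13), whereas its brightest probe, at 11.22, 11.04 and 11.01 after mianserin and 10.84 to 11.15 in vehicle arrays, differed by 0.11 (SE 0.13, adjusted p = 1).

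**Figure D2:**
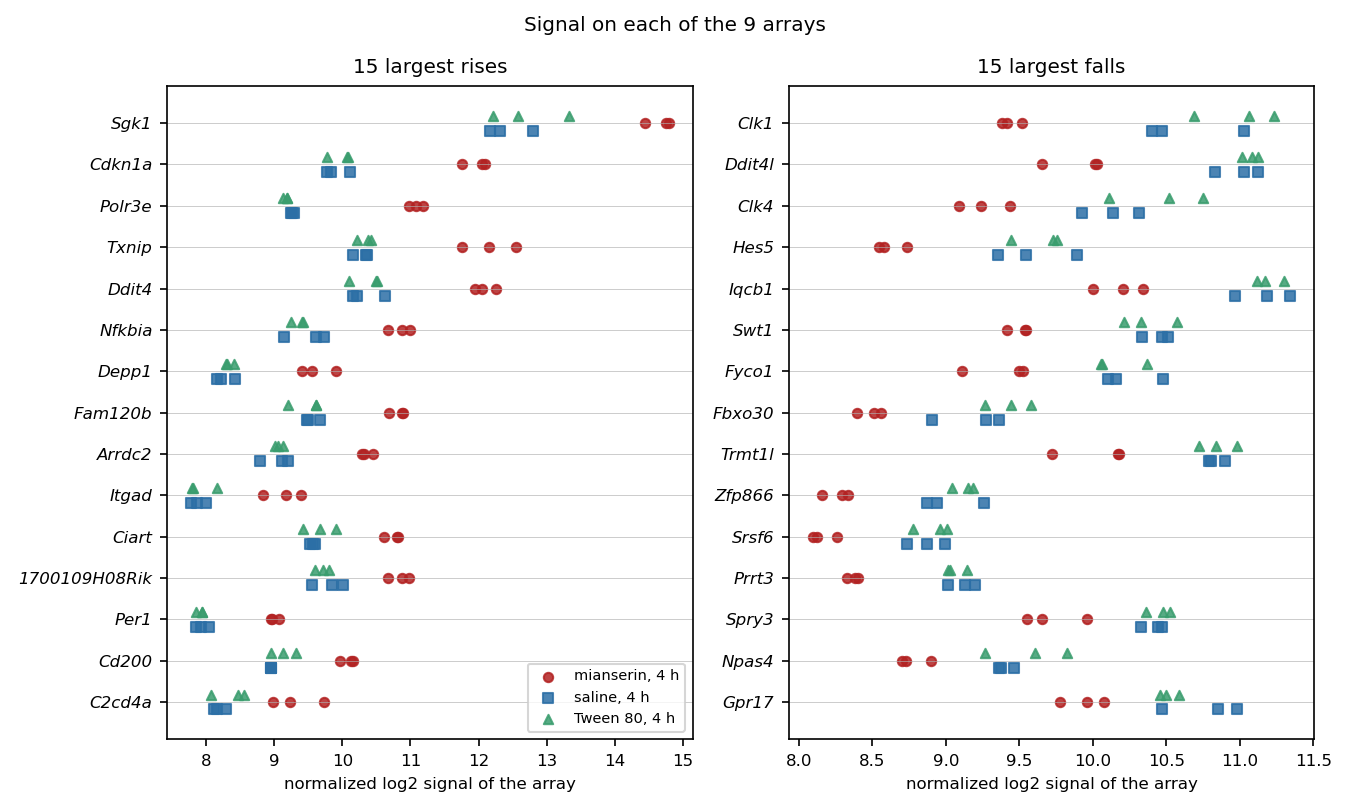
Normalized log2 signal (horizontal axis) of each mianserin, saline and Tween 80 array at 4 h for the 15 genes that rose most and the 15 that fell most, 1 probe each. In all 30 rows the 3 mianserin arrays lie outside the range of the 6 vehicle arrays, as the choice of the genes required.

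Of the lists with more than 2 measured genes, that of glucocorticoid-responsive genes had the largest share of rises. The lists were chosen with earlier results of these data known, so this share may in part be set by that choice. *Cdkn1a*, *Nfkbia*, *Ddit4*, *Errfi1* and *Per1* are members that other lists count too. By the brightest probe of each gene, 15 of 30 measured members rose and none fell. The median change of the group was 0.53, against 0.0076 for all genes. The highest member was *Sgk1*, a kinase that regulates ion channels and transporters and is a classic target of the glucocorticoid receptor. Its signal was 14.75, 14.45 and 14.79 after mianserin, 12.80, 12.31 and 12.17 after saline and 12.22, 12.58 and 13.32 after Tween 80, and the change was 2.10 (SE 0.23, adjusted p = 2.16e-11), or 4.28-fold. The 3 naive arrays, at 12.27, 12.80 and 12.52, lay within the vehicle range.

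*Cdkn1a*, which encodes the cell cycle inhibitor p21, came next, at 12.04, 12.10 and 11.75 after mianserin and 9.77 to 10.11 in vehicle arrays. The rise was 2.02 (SE 0.15, adjusted p = 1.19e-20), or 4.06-fold, and all 3 probes of the gene rose. *Nfkbia* encodes the inhibitor of the transcription factor NF-kappa-B and was at 10.67, 10.99 and 10.87 against 9.15 to 9.73 in vehicle arrays. It rose by 1.41 (SE 0.15), and *Nfkbib*, a second inhibitor of that factor, by 0.78 (SE 0.14), the only 2 of 12 measured NF-kappa-B factors and inhibitors that were called. The second probe of *Nfkbia*, at 0.69, was not called.

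Among the other members were *Map3k6*, a stress kinase gene (1.00, SE 0.13), *Errfi1*, an inhibitor of the EGF receptor (0.97, SE 0.15), *Hif3a* (0.87, SE 0.18), *Tsc22d3* or Gilz (0.78, SE 0.15), the lipid transporter gene *Mfsd2a* (0.69, SE 0.14) and *Fkbp5*, a co-chaperone of the receptor (0.67, SE 0.13). *Tsc22d3* was among the most even, at 13.60, 13.57 and 13.60 on the mianserin arrays against 12.59 to 12.93 in vehicle arrays. It rose on 1 of 3 probes, as did *Hif3a*. The genes of the receptors, *Nr3c1* (-0.09, adjusted p = 1) and *Nr3c2* (0.10, adjusted p = 1), did not pass the test. *Dusp1*, a phosphatase gene, was higher by 0.53 (adjusted p = 0.152), *Klf9* by 0.35 (adjusted p = 0.297) and *Zbtb16* by 0.26 (adjusted p = 0.871), and the metallothionein genes *Mt1* and *Mt2* by 0.10 and 0.19. Without replicate 2 of mianserin 9 of the 30 genes rose, and within the later chip numbers 5.

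Of genes of lipid droplets and fatty acid use 4 of 26 measured rose and none fell, with a median change of 0.04, where 0.640% of all genes rose. *Plin4*, a lipid droplet coat protein, changed by 1.10 (SE 0.26, adjusted p = 0.0111) on arrays at 10.69, 10.45 and 9.66, of which the lowest lay below the highest vehicle array (9.83). *Pnpla2*, the triglyceride lipase, was at 11.48, 11.36 and 10.68 against 10.00 to 10.50 in vehicle arrays (0.93, SE 0.19), and *Angptl4*, an inhibitor of lipoprotein lipase, at 9.66, 10.01 and 9.27 against 8.64 to 9.18 (0.78, SE 0.16). *Pdk4*, a kinase that diverts pyruvate from oxidation, rose by 0.54 (SE 0.14), as did *Depp1*, which FOXO factors induce, by 1.32 (SE 0.17). *Plin4*, *Pnpla2* and *Angptl4* were lowest in replicate 3, and *Plin4*, *Angptl4* and *Pdk4* also belong to the glucocorticoid list. *Angptl4* rose on 1 of 2 probes. None of the 4 lipid genes was called without replicate 2 of mianserin or within the later chip numbers, and 1 was without replicate 1 or with the chip as a fixed block. With saline or with Tween 80 as the only control, and without replicate 2 of Tween 80, 2 were called.

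The promoters of 6 genes that rose are printed because they hold a match to a motif of a factor known to act on genes of these groups. Windows run from 250 bases before to 50 after an annotated start, read 5′ to 3′ (RefSeq, GRCm38.p6). Capitals mark matches on either strand to a palindromic glucocorticoid response element (GNACA and TGTNC, 3 bases apart), to a FOXO site (TGTTTAC), to an E-box (CACGTG, the site of the clock factors and of MYC and USF proteins) or to a cAMP response element (TGACGTCA). Of *Sgk1* and *Per1*, which have 6 and 2 windows, the window with a match is given.
Sgk1 promoter, chr10:21993640-21993939, plus strand: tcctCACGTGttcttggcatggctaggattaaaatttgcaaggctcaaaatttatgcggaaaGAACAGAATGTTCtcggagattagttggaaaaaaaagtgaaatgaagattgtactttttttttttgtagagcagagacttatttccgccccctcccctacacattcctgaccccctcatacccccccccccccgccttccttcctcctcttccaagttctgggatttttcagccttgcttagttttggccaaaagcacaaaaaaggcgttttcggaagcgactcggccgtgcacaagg
Txnip promoter, chr3:96557707-96558006, plus strand: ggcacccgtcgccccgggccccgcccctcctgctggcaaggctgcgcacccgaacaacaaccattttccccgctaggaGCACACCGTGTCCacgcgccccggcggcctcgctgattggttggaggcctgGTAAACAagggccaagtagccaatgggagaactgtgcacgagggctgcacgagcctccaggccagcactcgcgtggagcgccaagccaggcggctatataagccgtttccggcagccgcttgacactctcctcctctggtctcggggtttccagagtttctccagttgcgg
Map3k6 promoter, chr4:133240568-133240867, plus strand: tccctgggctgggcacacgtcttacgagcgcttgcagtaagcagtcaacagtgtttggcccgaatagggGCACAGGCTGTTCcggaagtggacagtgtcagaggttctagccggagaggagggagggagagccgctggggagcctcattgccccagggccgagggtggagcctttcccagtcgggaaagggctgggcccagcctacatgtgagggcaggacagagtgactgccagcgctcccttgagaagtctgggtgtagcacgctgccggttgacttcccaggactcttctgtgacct
Per1 promoter, chr11:69098699-69098998, plus strand: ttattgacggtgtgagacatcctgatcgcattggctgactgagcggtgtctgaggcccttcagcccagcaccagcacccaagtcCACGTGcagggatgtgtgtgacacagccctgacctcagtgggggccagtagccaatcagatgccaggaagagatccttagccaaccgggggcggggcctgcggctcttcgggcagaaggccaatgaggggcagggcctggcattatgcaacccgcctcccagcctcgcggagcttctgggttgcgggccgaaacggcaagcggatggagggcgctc
Ciart promoter, chr3:95882179-95882478, minus strand: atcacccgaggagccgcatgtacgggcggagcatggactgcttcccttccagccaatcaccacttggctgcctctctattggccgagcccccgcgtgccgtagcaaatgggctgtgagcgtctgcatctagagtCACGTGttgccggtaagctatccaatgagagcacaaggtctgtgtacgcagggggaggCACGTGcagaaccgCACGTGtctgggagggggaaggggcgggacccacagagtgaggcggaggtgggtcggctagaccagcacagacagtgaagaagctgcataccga
Polr3e promoter, chr7:120917528-120917827, plus strand: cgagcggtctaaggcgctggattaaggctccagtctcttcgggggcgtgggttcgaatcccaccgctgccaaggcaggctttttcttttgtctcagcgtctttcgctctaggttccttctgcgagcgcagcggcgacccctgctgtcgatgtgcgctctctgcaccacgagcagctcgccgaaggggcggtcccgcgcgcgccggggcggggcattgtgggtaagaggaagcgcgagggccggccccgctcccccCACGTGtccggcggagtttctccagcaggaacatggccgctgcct

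The *Sgk1*, *Txnip* and *Map3k6* windows each hold a glucocorticoid response element, and these were the only genes that rose with that element in a window, 3 of 137 that have a window (2.19%), against 0.492% of the 15237 genes with a probe and a window. The *Txnip* window also holds a FOXO site. The E-box was found in 21 of the 137 genes that rose (15.3%), in 1 of the 53 that fell (1.89%, *Utrn*) and in 9.50% of all genes. *Ciart* has 3 of them, and *Per1*, *Polr3e*, *Sgk1*, *Fkbp5*, *Klf4*, *Arrdc4*, *Gadd45g* and *Reln* are among the other genes that rose with 1 or more in a window. The cAMP response element was present in 2.92% of the genes that rose, 7.55% of those that fell and 2.70% of all. The FOXO site was present in 2.19%, 5.66% and 3.49%. Other motifs searched on both strands were the CCAAT box (CCAAT, 47.4% of risen, 45.3% of fallen and 42.1% of all genes), the D-box (TTATGTAA, 0.730% of risen and 0.998% of all), the RORE (TAGGTCA, 3.65% of risen and 2.50% of all) and the TATA box (TATAAA, 8.03%, 11.3% and 14.0%). Each motif was counted by itself, whether or not it overlapped another. A match of letters is not a measured site, and the promoters to print were chosen after the matches were seen.

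*Per1* and *Ciart*, a repressor gene and a repressor-like output gene of the circadian clock, were the 2 of 21 measured clock genes that rose by their brightest probe. For *Ciart* the probe with the largest change read 10.80, 10.81 and 10.60 after mianserin and 9.43 to 9.90 in vehicle arrays (1.12, SE 0.17, adjusted p = 8.96e-07), and all 3 of its probes rose. For *Per1* the 3 probes rose by 1.07, 0.80 and 0.70, and the first read 8.95, 8.97 and 9.07 against 7.85 to 8.04. The median of the clock list was 0.04, and *Per2* was at -0.16 to -0.02 and *Per3* at 0.11 to 0.20 on their probes. *Cirbp*, an RNA-binding protein gene that cold induces, rose by 0.88 (SE 0.16), at 11.65, 11.90 and 11.63 against 10.60 to 11.28. Its change was 0.54 against naive mice (adjusted p = 0.406), 0.62 with the chip as a fixed block (adjusted p = 0.175) and 0.97 within the later chip numbers (adjusted p = 0.361), and it was not called in these. *Rbm3*, the other cold-induced gene of that list, differed by -0.17 and -0.09 on its 2 probes, which did not pass the test. No heat shock gene or co-chaperone of 27 measured was called, and their median was -0.08.

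The deepest fall was that of *Clk1*, a kinase that phosphorylates SR splicing factors. Its signal was 9.38, 9.42 and 9.52 after mianserin, 11.03, 10.40 and 10.47 after saline and 10.69, 11.06 and 11.23 after Tween 80, so that the treated arrays were tight and the vehicle arrays more spread. It fell by 1.37 (SE 0.21, adjusted p = 2.11e-06), or 2.59-fold, while a second probe at 7.59 to 7.95 on all 9 arrays, near the lowest signals measured, differed by 0.0080. Of the 4 probes of *Clk4* 1 fell, by 1.04 (SE 0.21, adjusted p = 0.00092), and the brightest, at 12.98, 12.89 and 12.94 against 12.94 to 13.24, differed by -0.14. For *Srsf6*, the gene of an SR protein, the probes likewise diverged, the dim one having fallen by 0.73 (SE 0.15) and the bright one having been higher by 0.39 (SE 0.14, adjusted p = 0.365). With 1 call by the brightest probe among 19 genes of Clk kinases and SR factors, the list had a median of -0.05. Where probes of 1 gene disagree, they may read different transcripts of it, and the positions of the probes were not analysed here.

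*Hes5*, a repressor gene that Notch signalling switches on and that marks astrocytes and neural progenitors in the adult brain, fell on both of its probes. The first read 8.74, 8.58 and 8.54 against 9.35 to 9.89 in vehicle arrays (fell by 1.00, SE 0.16, adjusted p = 4.92e-06), and the second 8.81, 8.79 and 9.12 against 9.55 to 10.03. It was the only gene of 22 in the Notch, Hes and Id list to be called, and the median of the list was -0.07. *Sox9*, a transcription factor gene of astrocytes, was at 11.93, 12.66 and 12.03 against 12.74 to 13.02 (fell by 0.70, SE 0.17, adjusted p = 0.013). *Sox10* (fell by 0.55, SE 0.13) and *Aspa* (fell by 0.65, SE 0.15), a transcription factor and an enzyme of oligodendrocytes, and *Gpr17*, a receptor of their precursors (fell by 0.71, SE 0.18, adjusted p = 0.0326), fell too. *Sox9* and *Aspa* were each called on 1 of 2 probes, with the other at -0.74 and -0.12. By the brightest probes 1 of 13 astrocyte markers (*Sox9*) fell, with a list median of 0.12 and the highest value at 0.55, and 2 of 12 oligodendrocyte markers (*Sox10* and *Aspa*) fell, with a median of 0.0065. No marker of either list rose, and 0.262% of all genes fell. The log2 of the summed signal of astrocyte markers (16.93 to 16.95 against 16.79 to 17.06) and of oligodendrocyte markers (17.44 to 17.46 against 17.40 to 17.53) lay within the vehicle ranges. Signals were summed before the log2 was taken, so the brightest genes weigh most in such a value. For a single gene in bulk tissue, fewer cells of a type and less RNA in each of them cannot be told apart. The calls of *Sox9*, *Sox10* and *Aspa* were lost without replicate 1 of mianserin and with saline as the only control, those of *Sox9* and *Sox10* without replicate 3, and those of *Sox9* and *Aspa* with the chip as a fixed block. The call of *Gpr17*, which no list holds, was lost when any 1 of the 3 mianserin arrays was left out.

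The other large falls were of genes that share no list. *Iqcb1*, a ciliary protein gene, read 10.21, 10.34 and 10.00 against 10.97 to 11.34 (fell by 1.00, SE 0.15), and its second probe differed by 0.08. *Swt1*, an RNA endonuclease gene, fell by 0.90 (SE 0.14) and *Trmt1l*, a gene of a transfer RNA methyltransferase family, by 0.82 (SE 0.15), on 2 of 3 and 3 of 4 probes. *Fyco1*, an adaptor of autophagosome transport, fell by 0.83 (SE 0.11), the ubiquitin ligase gene *Fbxo30* by 0.82 (SE 0.16) and the zinc finger gene *Zfp866* by 0.82 (SE 0.16). *Prrt3* fell by 0.72 (SE 0.14) and *Spry3*, of the Sprouty family, by 0.71 (SE 0.12). *Prrt3* fell on 1 of 3 probes, and *Fyco1* and *Fbxo30* on 1 of 2, with the other at -0.39 and -0.17. Among the rises outside the lists, *Itgad*, an integrin subunit gene, read 9.18, 9.39 and 8.83 against 7.78 to 8.16 (1.23, SE 0.16). Of its 5 probes 2 rose. Of 4 probes named *Fam120b* 2 rose, by 1.31 (SE 0.14) and 1.00 (SE 0.12), and the other two of that gene, at -0.18 and 0.17, did not pass the test. The probe with the larger rise also goes by another gene name, *Trove2*, so its gene is uncertain. *Cd200*, a gene of a membrane glycoprotein of neurons that restrains microglia, rose on 1 probe (1.04, SE 0.14) and not on the other two (0.12 each). *C2cd4a* (1.04, SE 0.18) and the transcript 1700109H08Rik (1.09, SE 0.18) complete the list of the largest rises. They rose on 1 of 3 and on 1 of 2 probes.

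Immediate early genes did not move together. Of 37 measured 5 rose, *Errfi1*, *Csrnp1* (0.95, SE 0.15), *Gadd45g* (0.84, SE 0.15), *Fosl2* (0.63, SE 0.17) and *Klf4* (0.56, SE 0.13), and 1, *Npas4*, fell. *Npas4*, a transcription factor gene that neuronal activity induces, was at 8.90, 8.70 and 8.73 against 9.26 to 9.82 (fell by 0.71, SE 0.16, adjusted p = 0.00435 from limma). A second, dimmer probe of *Npas4* differed by -0.03. *Fos* was at 11.03, 10.86 and 11.11 against 9.33 to 10.51 and was not called (1.12, SE 0.31, adjusted p = 0.0684). *Arc* was at 9.94, 10.05 and 9.85 against 10.20 to 10.88 and was not called either (-0.60, SE 0.24, adjusted p = 0.471). The median of the list was 0.09, and the call of *Npas4* was lost without replicate 2 of mianserin and with the chip as a block. Of the 5 rises, those of *Klf4* and *Fosl2* were lost without replicate 1 of mianserin, which left 3. With saline as the only control 3 genes of the list rose. *Fosl2*, which rose on 1 of 3 probes, was called in 13 of 26 alternatives, and *Klf4* in 21.

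**Figure D3:**
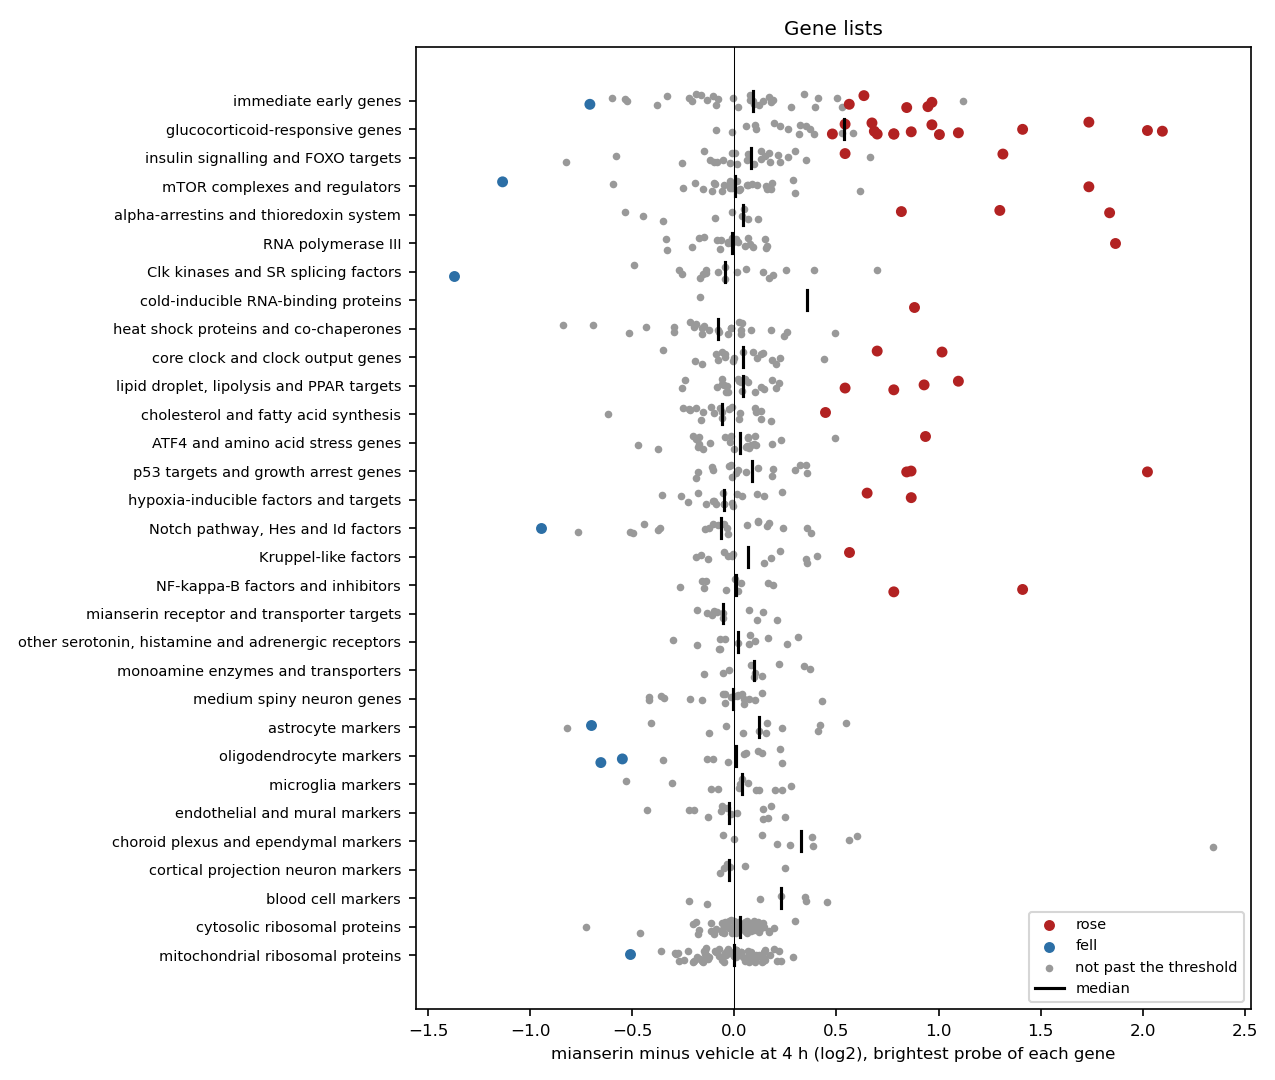
Change 4 h after mianserin against vehicle (log2, horizontal axis) of each measured gene of 31 lists, by its brightest probe. Red and blue points passed the test, grey points did not, and black bars are list medians. The glucocorticoid-responsive genes have a median of 0.53, and the lists of receptors and neurons lie around 0.

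No gene of the drug's own targets passed the test. None of 11 measured genes of its receptors and transporters was called, with changes from -0.18 to 0.21, among them *Htr2a* (-0.11), *Htr2c* (-0.09) and *Hrh1* (-0.06). None of 13 other serotonin, histamine and adrenergic receptors and none of 10 monoamine enzymes and transporters passed the test. The same held for the brightest probes of 20 genes of medium spiny neurons. The log2 of their summed signal was 18.12 to 18.22 after mianserin and 17.93 to 18.26 in vehicle arrays. *Drd2* was at 0.05 and *Penk* at -0.35, and a dimmer probe of 1 of the 20 genes fell.

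The log2 of the summed signal of microglia markers (14.16 to 14.33 against 14.08 to 14.35) lay within the vehicle range. That of endothelial and mural markers (14.22 to 14.44 against 14.26 to 14.41) overlapped the vehicle range. Blood cell markers, at 15.33 to 15.76 against 15.05 to 15.42, were higher by 0.29 on average with no gene of 7 called. The list of choroid plexus and ependymal markers stood apart. The log2 of its summed signal was 13.27, 15.40 and 15.91 after mianserin against 12.67 to 14.17 in vehicle arrays. No gene of 10 was called, and the median change was 0.33. *Ttr*, the abundant transport protein of the choroid plexus, was at 12.29, 15.17 and 15.77 after mianserin and at 10.86 to 13.74 in vehicle arrays, a difference of 2.34 with an SE of 1.21 (adjusted p = 0.782). In replicates 2 and 3 of mianserin the summed signal of the list was mostly that of *Ttr*. These replicates thus held more choroid plexus signal than the other 7 arrays, and its part in the changes above was not tested.

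Mianserin was also given 1, 2 and 8 h before tissue was taken, each time with its own vehicle arrays. No probe was called at 1 h (1349 at an unadjusted p under 0.05), 97 were called at 2 h (0.214% of those tested) and 262 at 8 h (0.579%). Of the 312 probes called at 4 h, 59 were called at 2 h (18.9% of the 312 and 60.8% of the 97) and 100 at 8 h (32.1% of the 312 and 38.2% of the 262), and 20 at all 3 times. Of the 220 rises 93 were called at 8 h, where their median change was 0.41, and of the 92 falls 7 were, with a median of -0.24. At 2 h, 35 of the rises and 24 of the falls were called, with medians of 0.32 and -0.39. Rises and falls were not tested against each other. The probes were chosen for their change at 4 h, so smaller values at other times are in part set by that choice.

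By their point values, single genes took 3 courses. Of the genes named here only *Cdkn1a* passed a direct test between 2 and 4 h, and none did between 4 and 8 h. *Sgk1*, *Polr3e*, *Ddit4* and *Nfkbia* were highest at 4 h, at 2.10, 1.86, 1.74 and 1.41, after 1.31, 1.45, 1.19 and 1.14 at 2 h, and were at 1.09, 1.18, 1.09 and 0.82 at 8 h. *Txnip* was nearly as high at 2 h (1.76) as at 4 h. *Cdkn1a* was at 0.47, 0.89, 2.02 and 2.59 at 1, 2, 4 and 8 h, and *Plin4* (2.12 at 8 h), *Angptl4* (1.64), *Pnpla2* (1.77) and *Hif3a* (1.33) also had their highest value at 8 h. *Clk1* was already lower by 1.05 at 1 h, fell by 1.72 at 2 h and was at -0.45 at 8 h, and *Clk4* and *Hes5* had a like course, from -1.13 and -1.03 at 2 h to -0.39 each at 8 h. *Trmt1l* (-0.06 at 8 h), *Ddit4l* (-0.32) and *Swt1* (-0.22) were close to vehicle by then.

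The differences between times were tested directly. Between 2 and 4 h the change differed for 2 probes (0.00442% of those tested). *Trp53inp1*, a p53 target gene of cell death and autophagy, was at -0.12 at 2 h and at 0.87 at 4 h, a difference of 0.98 (SE 0.17, adjusted p = 0.00464 from limma). Its arrays at 4 h were at 10.71, 10.71 and 10.44 against 9.56 to 9.91 in vehicle arrays. The second probe of the gene, at 0.41 at 4 h, was not called against vehicle. For *Cdkn1a* the difference was 1.13 (SE 0.21, adjusted p = 0.0135). Both belong to the list of p53 targets and growth arrest genes, in which 3 of 20 rose at 4 h, the third being *Gadd45g*. No probe was called without replicate 1 or 2 of mianserin or with the chip as a fixed block, and 20 were without replicate 3. With median scaling neither of the 2 was called. Between 4 and 8 h no probe was called by limma (1312 at an unadjusted p under 0.05, smallest adjusted p 0.292), so none of the later courses above was shown to differ from its 4 h value.

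**Figure D4:**
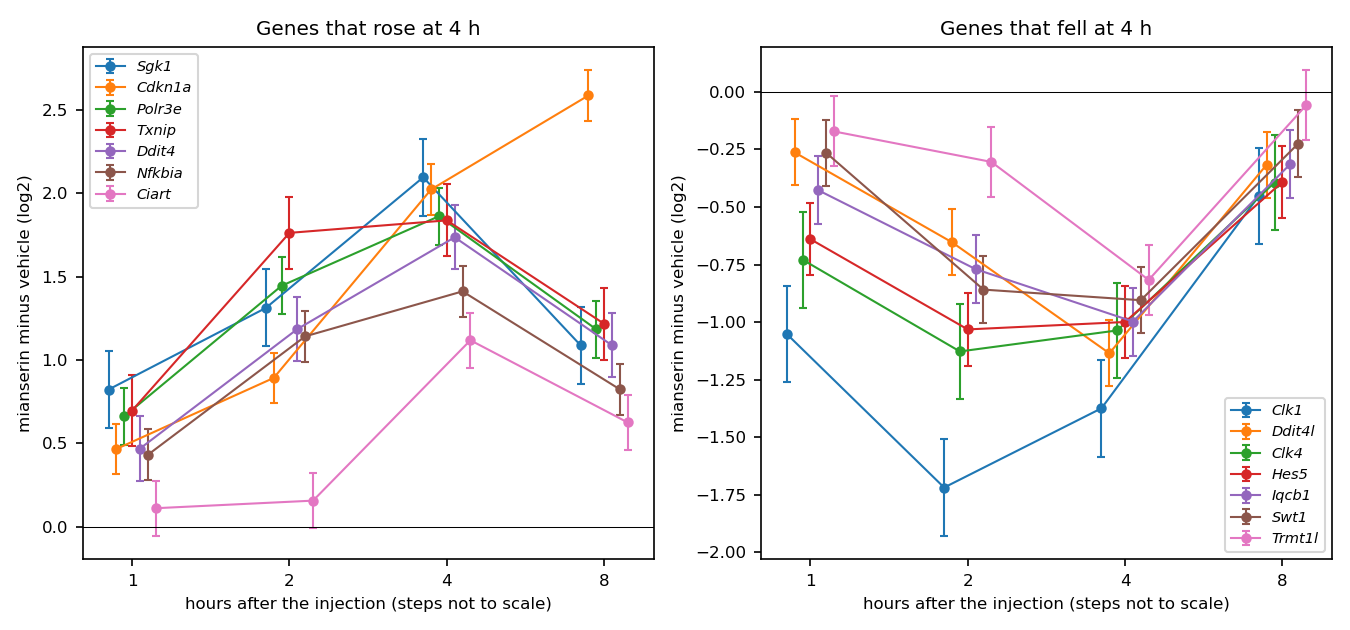
Change after mianserin against the vehicle arrays of the same time (log2, vertical axis) at 1, 2, 4 and 8 h for 7 genes that rose and 7 that fell at 4 h, with error bars of 1 SE from limma. *Cdkn1a* is highest at 8 h (2.59), most other rises have their highest value at 4 h, and *Clk1* is lowest at 2 h (-1.72). Of these genes only *Cdkn1a* passed the direct test between 2 and 4 h, and none did between 4 and 8 h.

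Values of 2 other drugs at 4 h were set beside those of mianserin. Risperidone (0.5 mg/kg) is an antipsychotic that blocks dopamine D2 and 5-HT2A receptors, and tranylcypromine (20 mg/kg) is an antidepressant that inhibits monoamine oxidase. The changes against vehicle share the vehicle arrays, so they are given side by side. Over the 220 probes that rose after mianserin the median change was 0.61, against 0.46 after risperidone and 0.17 after tranylcypromine. Over the 92 that fell it was -0.58, against -0.36 and -0.0094. The probes were chosen for their change after mianserin, so its larger medians are in part set by that choice. Over all probes the medians were 0.0036, 0.00060 and -0.0025. *Sgk1* was at 2.10, 1.98 and 2.08 after mianserin, risperidone and tranylcypromine, *Cdkn1a* at 2.02, 2.25 and 2.16, and *Ddit4* at 1.74, 1.59 and 1.17.

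Mianserin had been dissolved in saline and risperidone suspended in Tween, so a direct comparison holds the vehicle's part as well as the drug's. These parts were not tested apart. Compared directly, mianserin and risperidone arrays differed for 3 probes (0.00663% of those tested), all higher after mianserin. The first was a probe of *Reln*, which encodes the extracellular matrix protein reelin, at 9.25, 9.58 and 9.34 after mianserin, 8.38, 8.29 and 8.56 after risperidone and 8.31 to 8.66 after vehicle, a difference of 0.98 (SE 0.18, adjusted p = 0.0105). The brightest of the 5 *Reln* probes, at 13.28, 13.27 and 13.06 against 13.02 to 13.27 in vehicle arrays, was not called against vehicle (0.06, SE 0.11, adjusted p = 1). The other two were probes of *Klf4*, a Kruppel-like transcription factor gene. The brighter read 9.18, 8.94 and 9.20 after mianserin and 8.59, 8.16 and 8.27 after risperidone, a difference of 0.77 (SE 0.14, adjusted p = 0.0131), and the second differed by 0.73 (SE 0.14, adjusted p = 0.0148). The Tween arrays differed from the saline arrays by 0.03 (SE 0.18) on the *Reln* probe and by -0.02 (SE 0.14) on each *Klf4* probe. Each difference between the drugs rested on few arrays. Without replicates 1, 2 and 3 of mianserin 1, 1 and 0 probes were called, and 0 with the chip as a block. For the other called probes no difference was shown, which leaves differences of the size of their intervals possible, such as 0.36 for *Polr3e* (SE 0.20).

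Against tranylcypromine 180 probes differed (0.398% of those tested), 83 higher and 97 lower after mianserin, and 57 of the 220 rises and 43 of the 92 falls were among them. The change after tranylcypromine had the opposite sign in 31 of these 57 rises and 35 of these 43 falls, which the choice of probes that differ between the drugs favours. Of 37 immediate early genes 9 were lower after mianserin and none higher, where 0.331% of all genes were lower and 0.194% higher. *Inhba*, an activin subunit gene, was at 9.09, 9.13 and 9.14 after mianserin, 11.06, 11.55 and 11.81 after tranylcypromine and 9.41 to 9.77 after vehicle, a difference of -2.36 (SE 0.19, adjusted p = 8.42e-19). *Egr2* differed by -2.23 (SE 0.22), *Arc* by -2.10 (SE 0.27), *Egr4* by -1.66 (SE 0.34) and *Npas4* by -1.36 (SE 0.18), and of these *Npas4* alone was also called against vehicle after mianserin. *Clk1* differed by -1.81 (SE 0.24, adjusted p = 6.1e-08), having been at 10.98, 11.54 and 11.23 after tranylcypromine.

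In the other direction, *Per1* was higher after mianserin by 1.02 (SE 0.13, adjusted p = 3.43e-09 from limma) on its dimmest probe. That probe read 8.95, 8.97 and 9.07 after mianserin, 7.78, 8.05 and 8.09 after tranylcypromine and 7.85 to 8.04 after vehicle. The brighter *Per1* probes differed by 0.04 (SE 0.17) and 0.23 (SE 0.14) and did not pass the test. After tranylcypromine these probes were higher than vehicle by 0.66 and 0.58. The probe named *Fam120b* or *Trove2* was higher by 1.41 (SE 0.16), *Ciart* by 0.96 (SE 0.19), *C2cd4a* by 1.01 (SE 0.20), *Cd200* by 0.88 (SE 0.16) and *Polr3e* by 0.77 (SE 0.20, adjusted p = 0.0413). Of the 30 glucocorticoid-responsive genes none was higher and 1 lower after mianserin than after tranylcypromine, and their median change against vehicle was 0.53 after mianserin and 0.84 after tranylcypromine. Without replicate 1 of mianserin 93 probes differed from tranylcypromine, and without replicate 2 it was 100.

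**Figure D5:**
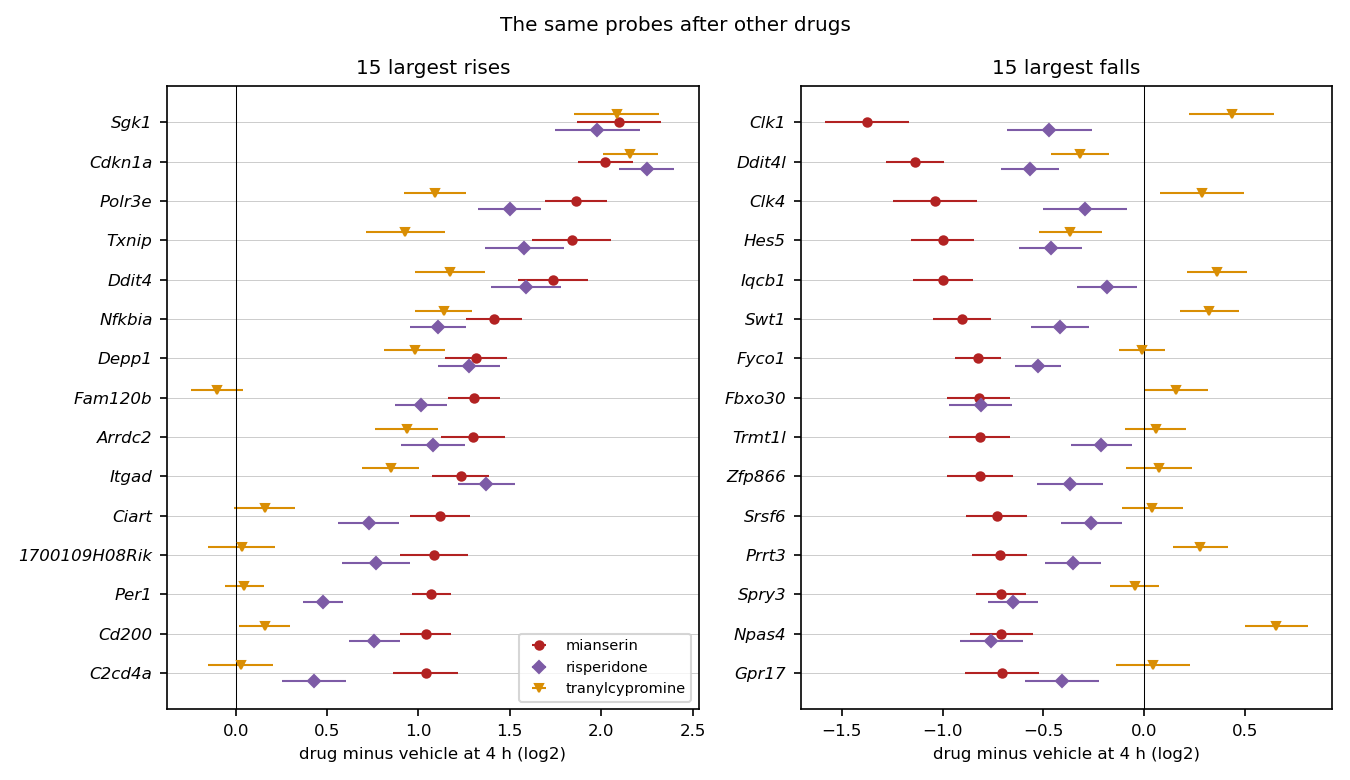
Change against vehicle at 4 h (log2, horizontal axis) after mianserin, risperidone and tranylcypromine for the 15 largest rises and 15 largest falls after mianserin, with 1 SE from limma. *Sgk1* and *Cdkn1a* are near 2 after each drug, and *Clk1*, *Clk4*, *Iqcb1* and *Npas4* are below 0 after mianserin and above it after tranylcypromine. Of these last genes only *Npas4* passed the test against vehicle after tranylcypromine. All 3 sets of values share the 6 vehicle arrays.

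No probe was called between the Tween 80 and the saline arrays of 4 h by limma (615 at an unadjusted p under 0.05). With saline as the only control 165 probes were called after mianserin, with Tween 80 as the only control 174, and with the naive mice of 4 h as control 174, of which 165, 172 and 159 were among the 312.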

How the data were processed

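RNA of mouse striatum was measured on Illumina MouseWG-6 arrays. The authors deposited log2 signals of 45281 probes on 156 arrays, without normalization and after quantile normalization, from raw data of BeadStudio, and neither table holds the z-scores of their methods. Here the log2 values that the authors deposited without normalization were quantile normalized over all arrays, without 2 probes that lack a value. No detection p-values were used, so signal over background is not known probe by probe, and the number of arrays limits the precision. A model with 52 groups was fitted in limma 3.58.1 (R 4.3.3) with an intensity trend. Mianserin arrays of 4 h were compared with the mean of the saline (replicates 1 to 3) and Tween 80 groups, which weigh the same. Nothing says that the pools of 1 group came from separate cages or days. The spread behind the p-values was estimated for each probe over the pools of all 52 groups and shared in part between probes. It is thus not the spread of the compared pools alone.

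Gene symbols came from the platform annotation (34883 probes with 1 symbol, 18 with several and 10378 with none). A gene of a list was represented by its brightest probe. The members and the 31 lists were chosen with earlier results of these data known. Named genes were the 15 largest rises and falls among called probes with 1 symbol whose 3 mianserin arrays were all above or all below the 6 vehicle arrays, *Polr3e*, *Txnip* and *Ddit4*, and called members of the lists. Other genes were chosen after their values were seen. Promoters are those of RefSeq (GRCm38.p6), and 8 motifs were searched.

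On simulated data with 200 changed probes and no chip effect the comparison recovered 62% of changes of 0.5 and 98% of changes of 1 on the log2 scale, with 3 unchanged probes called. Alternatives of normalization, background, controls, samples, blocks and variance were run, and each array was left out in turn.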

Additional observations from a re-analysis of the deposited data

Results flagged for a closer look

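For *Ddit4l*, 1 saline array, at 10.83, lay apart from the other 5 vehicle arrays, at 11.02 to 11.13, by 63.1% of the range of the group, past the critical share of 62.5% for 6 values. All 3 mianserin arrays lay below it. With 30 genes looked at in this way, chance alone is expected to mark about 1 in 20. The change after mianserin differed between 2 and 4 h for *Trp53inp1*, by 0.98 (SE 0.17, adjusted p = 0.00464 from limma), and for *Cdkn1a*, by 1.13 (SE 0.21, adjusted p = 0.0135), with 3 mianserin arrays at each time.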

How the results depend on the processing

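None of 1532 values of 59 named probes under the alternatives changed sign. Of these 1392 kept their side of the threshold and 140 lost the call, and 17 probes were called in every alternative. The largest rises and falls among the named probes were chosen for mianserin arrays outside the vehicle range. For such probes the sign could not change when an array was left out, with a single vehicle as control or within a range of chip numbers. The count of 312 probes after mianserin was 275 with median scaling, of which 171 were among the 312, 304 with the values the authors normalized and 295 with normexp. It moved to 165 with saline, 174 with Tween 80 and 174 with naive mice as the only control, to 592 on the first chip set alone, whose arrays spread less (median residual SD 0.14 against 0.19 in the second), to 204 with the chip as a fixed block, to 739 with the range of chip numbers as a block, to 1834 and 52 within the earlier and the later range, and to 164 by the methods' t-test (4303 before adjustment). Without 1 array it was 160 to 291, lowest without replicate 1 (160) and 2 (161) of mianserin.

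Deviations from the group means were not shared by arrays of 1 replicate number (mean r -0.0037, against 0.0021 for other numbers and 0.23 within a chip), so the numbers pair nothing, and with the replicate block on the first chip set 596 probes were called. For the difference between 4 and 2 h the 2 calls became 1 other probe with median scaling, 4 on the first chip set, 4 with the replicate block, 0 with the chip as a block and 0 to 20 without 1 mianserin array (20 without replicate 3). Between 8 and 4 h, and between Tween 80 and saline, 0 probes were called in the alternatives run. Against risperidone the 3 calls became 7 with median scaling, 5 on the first chip set, 4 with the replicate block, 0 with the chip as a block and 0 to 1 without 1 mianserin array. Against tranylcypromine the 180 calls became 109 with median scaling, then 79 higher and 30 lower, 392 on the first chip set, 380 with the replicate block and 93 to 127 without 1 mianserin array. Apart from the fewer arrays in some of these fits, the cause of these moves was not tested.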

Other observations

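Some called probes belong to genes that no list holds. They were chosen after their values were seen and are given as single genes, not as groups. *Cul3*, the scaffold gene of a family of ubiquitin ligases, was at 13.6 on average after mianserin, a rise of 0.87, and *Spsb1* rose by 0.88. *Plat*, the tissue plasminogen activator gene, rose by 0.88, *Edn1*, which encodes endothelin, by 0.70 and *Adamts1*, a secreted protease gene, by 0.50. *Sox18*, an endothelial transcription factor gene, fell by 0.64. *Tlr7*, a receptor gene of innate immunity, rose by 0.79, whereas *Irf8* fell by 0.53, *P2ry13*, a nucleotide receptor gene of microglia, by 0.64 and *Cfp*, the complement factor properdin gene, by 0.62. Of the 312 called probes 52 carry no single symbol.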
